A study of Rattus norvegicus with 10 samples.

Results

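The node of Ranvier is the short gap between myelin segments where the axon membrane is exposed and the action potential is regenerated. Beside each node lies the paranode, where the myelinating glial cell is sealed to the axon, and beyond it the juxtaparanode, where voltage-gated potassium channels gather under the myelin. Axon and glial cell each supply proteins to these junctions, so their genes are read from different cells. In a dorsal root ganglion the axonal proteins are made by sensory neurons, whose cell bodies lie in the ganglion. The glial partners are made by the myelinating Schwann cells that wrap the proximal axon and the nerve fibres passing through.

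The genes described here are Cntnap1, Cntnap2, Cntn1, Cntn2, Nfasc, Nrcam, Gldn, Ank3 and Sptbn4. They were taken from the table by gene name, and 9 of 9 names were found, each on 1 row, among 30560 genes. All 9 passed the filter on low counts, which left 15186 genes. From textbook knowledge, 5 of the 9 are axonal in peripheral nerve (Cntnap1, Cntnap2, Cntn1, Ank3 and Sptbn4), 3 are made by axon and glia (Nfasc, Cntn2 and Nrcam), and 1, Gldn, is made by Schwann cells.

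Transcripts were measured by bulk sequencing of polyadenylated RNA from L6 dorsal root ganglia of Sprague Dawley rats aged 7 to 8 weeks. The stated aim was to test how specific an siRNA against Scn9a is, the gene of the sodium channel Nav1.7. Every animal had a lumbar intrathecal catheter, isoflurane anaesthesia and sustained-release meloxicam, and was dosed 5 days after surgery in a volume of 30 to 45 µL. The control group received PBS (0 mg, 5 libraries), and the other group received 0.75 mg of the divalent siRNA SCN9A_2544 (5 libraries). The timepoint label of both groups is 14 days, and the labels do not say from which event it is counted. No group given a non-targeting siRNA was analysed here, so the comparison does not separate the siRNA's sequence from dosing with any siRNA. Whether a sample stands for 1 animal is not in the labels, and the p-values below therefore reflect variation among samples that may be partly technical. Library totals ran from 11832376 to 15420006 estimated counts.

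Start-site sequences show how unlike these genes are at the DNA level, and 3 are printed for the 2 axonal genes and the Schwann cell gene that the results turn on. RefSeq windows of 300 bases, 250 before and 50 after the annotated start, were found for 6 of the 9 genes, on build GRCr8, which is not the build named for the counts. They are written 5′ to 3′ on the gene's strand, and capitals mark CpG dinucleotides, the sites at which mammalian DNA is methylated. The windows lie at chr8:63575020-63575319 on the plus strand (Gldn), chr7:125252060-125252359 on the plus strand (Cntn1) and chr1:91864791-91865090 on the minus strand (Sptbn4).
Gldn: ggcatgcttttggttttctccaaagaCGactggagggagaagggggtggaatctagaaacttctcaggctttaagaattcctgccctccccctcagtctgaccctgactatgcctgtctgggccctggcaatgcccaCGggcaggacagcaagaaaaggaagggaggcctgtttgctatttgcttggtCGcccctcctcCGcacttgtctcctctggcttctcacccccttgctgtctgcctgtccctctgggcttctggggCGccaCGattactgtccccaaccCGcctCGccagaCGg
Cntn1: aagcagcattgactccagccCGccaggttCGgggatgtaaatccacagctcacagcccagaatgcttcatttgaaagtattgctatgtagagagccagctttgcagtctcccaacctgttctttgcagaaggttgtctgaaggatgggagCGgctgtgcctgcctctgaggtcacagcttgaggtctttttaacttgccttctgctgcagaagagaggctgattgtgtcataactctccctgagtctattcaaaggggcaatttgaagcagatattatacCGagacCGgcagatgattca
Sptbn4: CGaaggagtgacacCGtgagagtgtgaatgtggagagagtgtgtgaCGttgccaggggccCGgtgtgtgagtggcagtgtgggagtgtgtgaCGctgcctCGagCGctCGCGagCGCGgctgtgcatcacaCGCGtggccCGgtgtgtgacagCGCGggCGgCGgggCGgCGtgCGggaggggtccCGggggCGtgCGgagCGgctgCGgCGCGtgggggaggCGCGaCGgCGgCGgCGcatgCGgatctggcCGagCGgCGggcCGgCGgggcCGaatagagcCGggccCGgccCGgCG

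The Sptbn4 window held 45 CpG dinucleotides and was 75.0% G or C, against a median of 7 CpG and 51.7% over 33469 rat promoter windows of this length. The Gldn window held 9 CpG at 58.7% G or C, and the Cntn1 window held 5 at 49.0%. Of the other members, Cntn2 had 19 CpG, Ank3 had 7, and Nfasc had 2 windows with 6 and 4. Among 5 motifs searched on both strands, the GC box GGGCGG was found 2 times in the Sptbn4 window and the CCAAT box 1 time in 1 Nfasc window, and the other windows held none. The GC box occurs in 33.1% of all windows and CCAAT in 37.5%. The motifs TATAAA (14.2% of windows), ACAAAG (18.8%) and GTGGGCG (7.12%) were in none of the members' windows. These matches describe the letters in the windows and show no binding. Cntn1 and Sptbn4, with 5 and 45 CpG dinucleotides, are described further on as lowest in the same 3 libraries.

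The siRNA's target was read first as a check of the labels. Scn9a stood at 257, 176, 137, 171 and 132 CPM (a gene's share of the library's counts, scaled by TMM factors) in PBS replicates 1 to 5. In SCN9A_2544 replicates 1 to 5 it stood at 103, 83.8, 44.6, 97.4 and 97.7 CPM. Every siRNA library was below every PBS library, where 0.665% of all tested genes did not overlap between the groups. The fitted difference was -1.03 on the log2 scale (SE 0.25). By edgeR's quasi-likelihood F-test Scn9a had an unadjusted p of 0.00134 and an adjusted p over all genes of 0.963. By DESeq2 its adjusted p was 0.0707.

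Cntnap1 and Cntn1 encode Caspr and contactin-1, which pair on the axon membrane to build the paranodal septate-like junction. Cntnap1 stood at 273, 255, 147, 366 and 166 CPM in PBS replicates 1 to 5 and at 361, 371, 142, 250.3 and 329 CPM in SCN9A_2544 replicates 1 to 5. Cntn1 stood at 259, 239, 98.3, 310.5 and 151 CPM in PBS and at 450.1, 362, 72.7, 205 and 311 CPM in SCN9A_2544 libraries. For both genes the 3 lowest libraries were PBS replicate 3, PBS replicate 5 and SCN9A_2544 replicate 3, and the groups overlapped. The range over all 10 libraries was 2.62-fold for Cntnap1 and 6.19-fold for Cntn1.

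Cntnap2 and Cntn2 encode Caspr2 and TAG-1, the adhesion pair that holds potassium channels at the juxtaparanode, with TAG-1 present on the glial membrane as well. Cntnap2 stood at 63.9, 58.4, 28.2, 64.7 and 45.5 CPM in PBS libraries and at 78.1, 69.2, 18.3, 40.05 and 62.8 CPM in SCN9A_2544 libraries. Cntn2 stood at 152, 161, 82.5, 236 and 91.7 CPM in PBS libraries and at 245, 228, 92.9, 168 and 247 CPM in SCN9A_2544 libraries. PBS replicate 3 and SCN9A_2544 replicate 3 were low for both genes, PBS replicate 5 was the second lowest library for Cntn2, and the groups overlapped.

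Ank3 and Sptbn4 encode ankyrin-G and βIV-spectrin, which anchor sodium channels to the axonal cytoskeleton at the node and the axon initial segment. Sptbn4 stood at 92.5, 89.3, 50.3, 126 and 67.3 CPM in PBS libraries and at 122, 119.8, 47.9, 85.3 and 109.99 CPM in SCN9A_2544 libraries, low in the same 3 libraries as Cntnap1. Ank3 stood at 308, 353, 422, 353 and 402 CPM in PBS libraries and at 329, 324, 311, 316 and 411 CPM in SCN9A_2544 libraries. The 2 scaffold genes thus had different profiles: Ank3 was highest in PBS replicate 3, where Sptbn4 was near its lowest, and Ank3 covered a range of only 1.37-fold. Ankyrin-G is also made outside neurons, and 1 row holds all its isoforms.

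Nfasc and Nrcam encode adhesion molecules of the L1 family. Nfasc gives rise to the nodal form NF186 in neurons and to the paranodal form NF155 in glia, which the table sums in 1 row. NrCAM is found at the node on the axon and is also released by Schwann cells. Nfasc stood at 312, 513, 358, 501 and 537 CPM in PBS libraries and at 537, 504, 395, 343 and 502 CPM in SCN9A_2544 libraries. Nrcam stood at 118, 121, 103, 114 and 103 CPM in PBS libraries and at 135, 129, 74.7, 113 and 115 CPM in SCN9A_2544 libraries. Nrcam was lowest in SCN9A_2544 replicate 3, Nfasc was lowest in PBS replicate 1, and the groups overlapped for both.

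Gldn encodes gliomedin, the ligand on Schwann cell microvilli that gathers NF186 at forming peripheral nodes. It stood at 33.9, 101, 214, 61.2 and 160.4 CPM in PBS replicates 1 to 5 and at 40.8, 61.96, 236, 78.96 and 67.6 CPM in SCN9A_2544 replicates 1 to 5. The order was turned round against the axonal genes: Gldn was highest in PBS replicate 3, PBS replicate 5 and SCN9A_2544 replicate 3, the libraries where Cntnap1, Cntn1 and Sptbn4 were lowest. Its 6.98-fold range over 10 libraries was the widest of the 9. The SD of its log2 CPM lay at the 96.7th percentile of all tested genes, against 94.3 for Cntn1, 86.4 for Cntnap2, 39.6 for Nfasc, 24.8 for Nrcam and 10.1 for Ank3. Levels were not compared between genes, since transcript lengths were not used here.

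**Figure D1:**
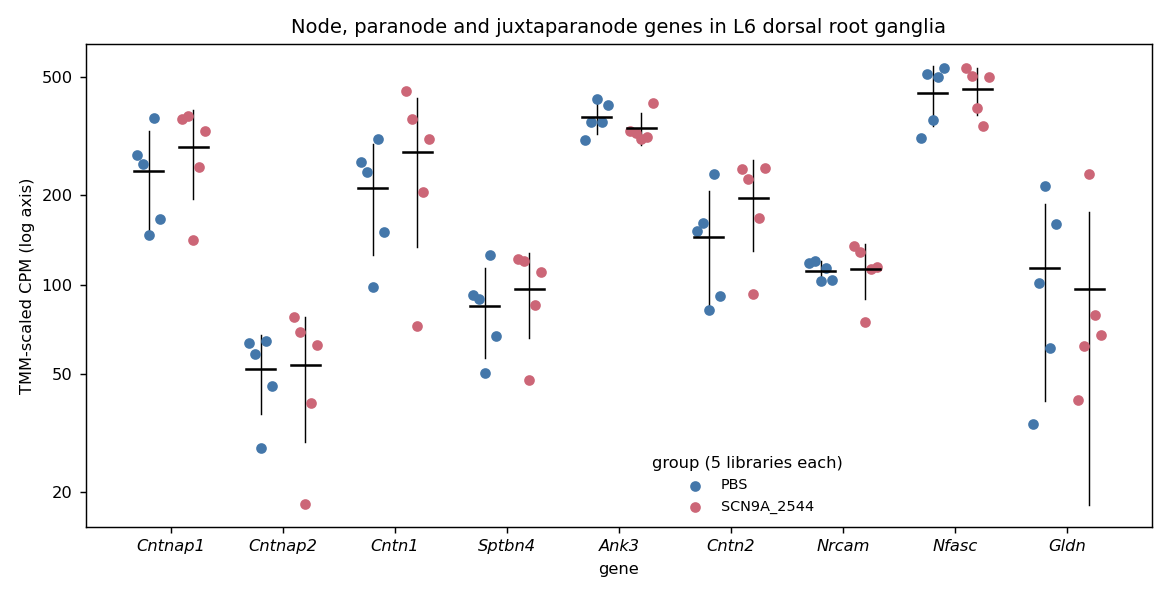
TMM-scaled CPM on a log axis for each of the 9 genes, with 1 point per library, a horizontal line for the group mean and a vertical line for the SD (5 PBS and 5 SCN9A_2544 libraries). The 2 groups overlap for every gene, and the spread within a group is wide for Cntn1 and Gldn and narrow for Ank3 and Nrcam.

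The siRNA comparison asked whether any of these genes differed between SCN9A_2544 and PBS ganglia. By edgeR with Benjamini-Hochberg adjustment, 0 of the 9 genes passed the adjusted threshold of 0.05, where 0 of all 15186 genes did (0%). At an unadjusted p below 0.05 the counts were 0 of 9 and 642 of all genes (4.23%). DESeq2 called 12 genes, 0 of them among the 9, and limma voom called 0. The groups did not overlap for 0 of the 9 genes, against 0.665% of all tested genes.

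Among the axonal genes, Cntn1 averaged 212 ± 85.7 CPM in PBS and 280.1 ± 146 CPM in siRNA ganglia (SD, n = 5 each), a log2 fold change of 0.40 (95% interval -0.53 to 1.34). Cntnap1 averaged 241 ± 88.4 and 291 ± 95.8 CPM, a log2 fold change of 0.27 (-0.38 to 0.92). For Cntnap2 it was 0.04 (-0.72 to 0.80), for Sptbn4 0.19 (-0.43 to 0.80) and for Ank3 -0.12 (-0.42 to 0.18). With single libraries left out, Cntn1 ran from 0.17 (without SCN9A_2544 replicate 1) to 0.62 (without SCN9A_2544 replicate 3). Cntnap1 ran from 0.13 to 0.47 and Sptbn4 from 0.05 to 0.37, the lower value without PBS replicate 3 and the higher without PBS replicate 4. Ank3 ran from -0.20 (without SCN9A_2544 replicate 5) to -0.07 (without PBS replicate 3). The intervals leave room for changes of size in both directions, widest for Cntn1 and narrowest for Ank3.

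Cntn2 had the smallest p of the 9 in this comparison. It averaged 145 ± 61.9 CPM in PBS and 196 ± 66.1 CPM in siRNA ganglia, a log2 fold change of 0.44 (SE 0.32, interval -0.27 to 1.15), with an adjusted p of 0.963 by edgeR. It was 0.29 without PBS replicate 5 and 0.69 without PBS replicate 4. For Nfasc the log2 fold change was 0.04 (-0.39 to 0.46) and for Nrcam 0.02 (-0.32 to 0.37). Gldn averaged 114 ± 73.5 and 97.1 ± 79.0 CPM, a log2 fold change of -0.23 (-1.41 to 0.94), and without PBS replicate 3 it was 0.12. The signs of Cntnap2, Ank3, Nfasc, Nrcam and Gldn turned under at least 1 of the alternatives, so no direction is given for them.

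**Figure D2:**
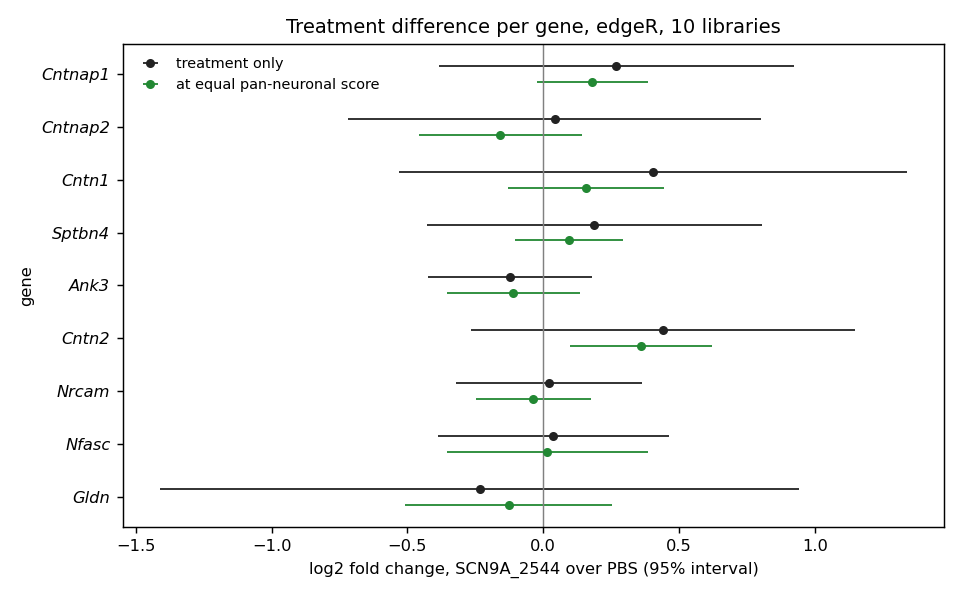
Log2 fold change of SCN9A_2544 against PBS for the 9 genes with 95% intervals, from the comparison of groups alone and with the neuronal score as a covariate (10 libraries each). The intervals shorten with the covariate, from -0.53 to 1.34 to -0.13 to 0.44 for Cntn1, and for Cntn2 the second interval lies above 0.

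The libraries differed in how much of their RNA came from neurons and from myelinating Schwann cells. A neuronal score, the mean log2 CPM of 19 pan-neuronal genes, ran from 8.11 to 9.40 in PBS libraries and from 7.95 to 9.35 in SCN9A_2544 libraries. A Schwann score, the same over 11 myelin genes, ran from 8.25 to 10.61 and from 8.33 to 10.66. None of the 9 genes is in either score. The 3 libraries with the lowest neuronal scores, PBS replicate 3 (8.11), PBS replicate 5 (8.52) and SCN9A_2544 replicate 3 (7.95), had the highest Schwann scores (10.61, 10.25 and 10.66). Some other non-neuronal markers moved along with this difference, and others did not. Summed endothelial markers were also highest in these 3 libraries, at 116, 118 and 119 CPM, as were satellite glia markers, at 2466, 2256 and 1998 CPM. Summed fibroblast markers were 8049, 10151 and 6068 CPM there and 1319 to 7304 CPM in the other 7 libraries. The mean log2 CPM of the same satellite glia markers did not follow, at 6.17, 6.01 and 6.51, with 6.01 the lowest of the 10 libraries. Summed macrophage markers were highest in SCN9A_2544 replicate 4 (326 CPM), and skeletal muscle markers in SCN9A_2544 replicate 1 (98.6 CPM). The slopes below thus set neurons against several other cell types together, and the part of each type in them was not tested. In bulk tissue, fewer cells of a type and less RNA per cell cannot be told apart, and since CPM is a share, a larger part of one cell type lowers the share of the others.

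At equal neuronal score the treatment term passed the adjusted threshold for 0 of the 9 genes and for 0 of 15186 genes (0%) by edgeR. At an unadjusted p below 0.05 it passed for 1 of 9, Cntn2, and for 9.77% of all genes. The Cntn2 difference was 0.36 on the log2 scale (SE 0.12, interval 0.10 to 0.62), with an unadjusted p of 0.0112 and an adjusted p of 0.478, and over the alternatives its adjusted p ran from 0.113 to 0.996. At equal score Cntn2 ran from 0.28 to 0.45 with single libraries left out. The next smallest p was that of Cntnap1, at 0.18 (interval -0.02 to 0.38). For Ank3 it was -0.11 (-0.35 to 0.13), for Sptbn4 0.10 (-0.10 to 0.29) and for Gldn -0.13 (-0.51 to 0.25). Single libraries left out moved these to between -0.19 and -0.03 for Ank3, 0.03 and 0.14 for Sptbn4, and -0.29 and -0.03 for Gldn. Scn9a in this fit was -1.11 (SE 0.14), with an adjusted p of 0.0541. Over the alternatives its adjusted p ran from 4.91e-10 to 0.268, and it passed in 5 of 18.

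Markers of other cells were read beside this comparison. All 9 macrophage markers were tested, and their summed level was 96.0 to 157 CPM in PBS and 174 to 326 CPM in siRNA ganglia, with no overlap. Their mean log2 CPM did overlap, at 3.14 to 3.91 in PBS and 3.80 to 4.74 in siRNA ganglia. For the 9 satellite glia markers the mean did not overlap (6.01 to 6.25 against 6.41 to 6.51 log2 CPM), while their summed CPM did (1455 to 2466 against 1539 to 1998). Of single tested genes, 0.665% did not overlap between the groups, and no such share was computed for lists. The mean of 7 general Schwann cell markers overlapped (7.16 to 8.42 against 7.67 to 8.70 log2 CPM). Fibroblast markers, 6 of 6 tested, summed to 1319 to 10151 and 2738 to 6068 CPM. Endothelial markers, 5 of 6 tested, summed to 69.6 to 118 and 88.7 to 119 CPM. Skeletal muscle markers, 5 of 7 tested, summed to 13.2 to 53.1 and 10.5 to 98.6 CPM. Central glial markers, 3 of 10 tested, summed to 26.5 to 137 and 40.3 to 181 CPM. The 3 tested were Gfap (255 to 2200 estimated counts), Hapln2 (54 to 361) and Sox8 (71 to 359). The defining oligodendrocyte genes Mog, Olig2 and Opalin had 0 to 23.6, 0 to 2 and 0 to 12 counts in a library. The part of these cells in the values of the 9 genes was not tested.

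The contrast of neuronal with glial members was then read against the scores. A slope of 1 means that a gene gained 1 log2 unit of CPM for each log2 unit of the neuronal score, with the treatment group held in the fit. Of the 9 genes, 6 had slopes above 0 and 1 below 0 that passed an adjusted p of 0.05 by edgeR. Of the 15167 genes tested outside the score, 42.6% passed in either direction, 21.9% above 0 and 20.7% below. The median slope was 0.93 over the 9 genes and -0.01 over all genes.

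Both paranodal axonal genes followed the neuronal score. The slope of Cntnap1 was 0.97 (SE 0.10, adjusted p 2.34e-05) and that of Cntn1 was 1.51 (SE 0.14, adjusted p 1.93e-05). The Cntn1 interval, 1.20 to 1.82, lay above 1, and the Cntnap1 interval, 0.76 to 1.18, included it. Cntn1 also followed the score more steeply than the juxtaparanodal pair in size, whose slopes were 1.18 for Cntnap2 (interval 0.86 to 1.50) and 1.04 for Cntn2 (0.77 to 1.31), although these intervals overlap and the differences were not tested.

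The scaffold pair differed in slope. Sptbn4 had a slope of 0.93 (SE 0.09, interval 0.73 to 1.14, adjusted p 2.53e-05), and Ank3 had -0.08 (SE 0.11, interval -0.33 to 0.16, adjusted p 0.589). Among the adhesion genes of the L1 family, Nrcam passed with a slope of 0.38 (interval 0.16 to 0.59, adjusted p 0.00958), and Nfasc did not, at 0.17 (interval -0.20 to 0.55, adjusted p 0.449). The Nrcam call rested on 1 library: without SCN9A_2544 replicate 3 the slope was 0.19 with an adjusted p of 0.221.

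Gldn went the other way, with a slope of -1.66 (SE 0.17, interval -2.02 to -1.29, adjusted p 2.40e-05). The neuronal and Schwann scores had a Pearson r of -0.947 over the 10 libraries, so slopes on the 2 scores are not independent results. On the Schwann score Gldn had a slope of 1.06 (SE 0.06, interval 0.93 to 1.19, adjusted p 1.26e-06). Its p was the second smallest of 15186 genes in that fit, the genes of the score included. Of the other 8 genes, 6 had Schwann slopes below 0 that passed, from -0.83 for Cntn1 to -0.20 for Nrcam, where 40% of all genes passed, 20.6% below 0 and 19.4% above. Ank3 (0.07, adjusted p 0.423) and Nfasc (-0.04, adjusted p 0.812) passed in neither fit. The Schwann call of Nrcam (adjusted p 0.0308) was lost with no filter on low counts (adjusted p 0.053) and without PBS replicate 5 or SCN9A_2544 replicate 1, 2 or 3 (0.0504, 0.077, 0.0516 and 0.301).

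The calls rest largely on the 3 libraries of low neuronal score. Without them (7 libraries, chosen after seeing the data), 10 genes passed on the neuronal score and 0 of the 9 did. The neuronal slope was then 1.09 for Cntnap1 (adjusted p 0.173), 1.55 for Cntn1 (0.150), 1.20 for Cntnap2 (0.224), 1.00 for Sptbn4 (0.208), 0.94 for Cntn2 (0.334) and -2.26 for Gldn (0.126). Nrcam moved to 0.21 (adjusted p 0.792). On the Schwann score 188 genes passed without these libraries, and of the 9 genes Gldn did, with a slope of 0.92 (adjusted p 0.00897). The Schwann slopes of the axonal genes were smaller there, at -0.25 for Cntnap1, -0.30 for Cntnap2, -0.39 for Cntn1 and -0.22 for Sptbn4. With the replicate number as a block in all 10 libraries, 0 of the 9 genes passed on either score by edgeR, and 0 of all genes did. The block leaves few degrees of freedom, so lost calls do not show that slopes were lost. Neuronal slopes were then 1.32 for Cntnap1, 1.52 for Cntn1, 1.12 for Cntnap2, 1.09 for Sptbn4, 1.51 for Cntn2 and 0.29 for Nrcam. Gldn then had a neuronal slope of -1.54 (adjusted p 0.189) and a Schwann slope of 0.89 (adjusted p 0.140).

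**Figure D3:**
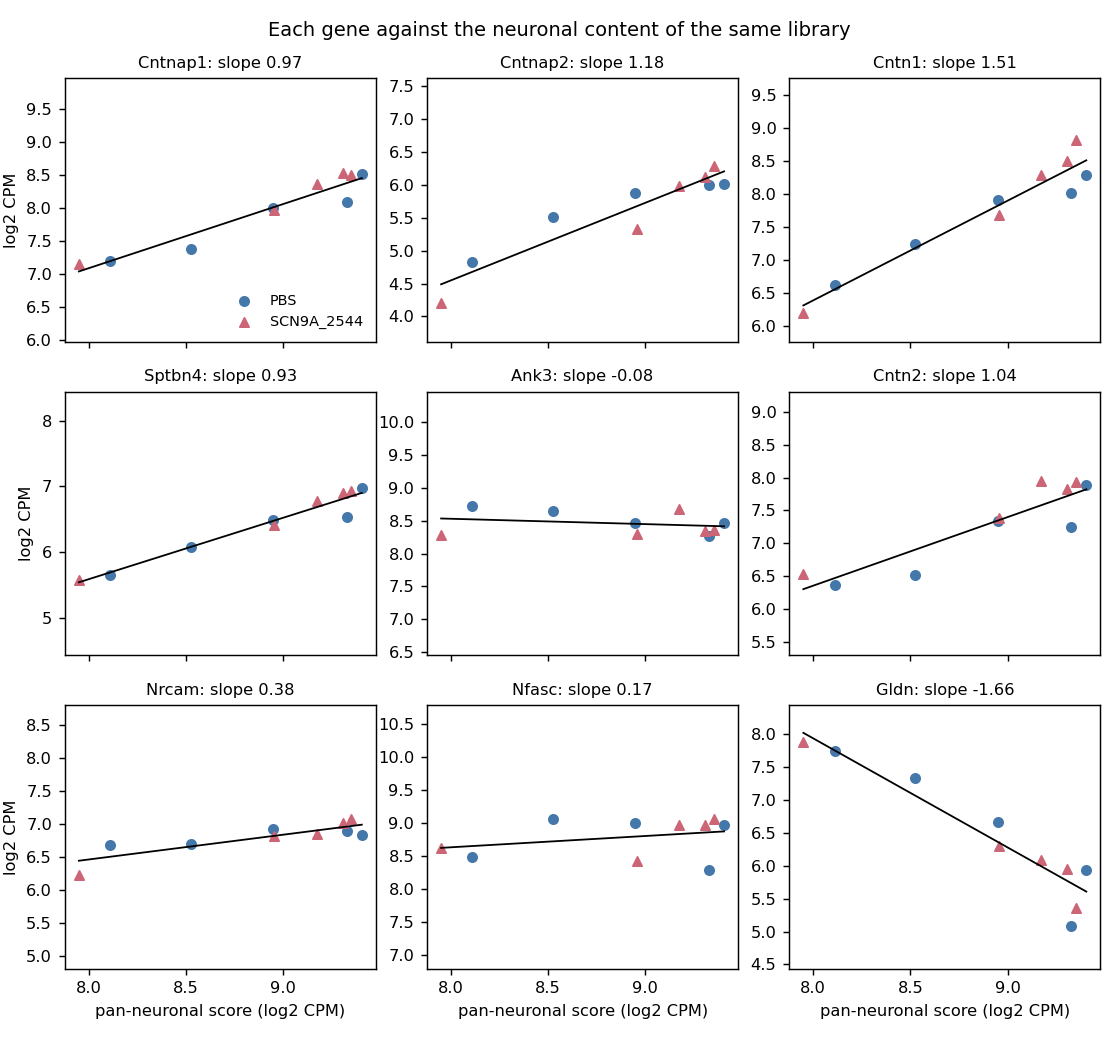
Log2 CPM of each of the 9 genes against the neuronal score of the same library (10 points per panel, coloured by group), with the fitted slope drawn through the mean of the points. Cntn1, Cntnap2, Cntn2, Cntnap1 and Sptbn4 climb with the score (slopes 0.93 to 1.51), Gldn falls (-1.66), and Ank3 and Nfasc lie near level (-0.08 and 0.17).

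The distance between the axonal genes and the glial gene varied from library to library. The mean log2 CPM of the 5 axonal genes minus the log2 CPM of Gldn was 2.30, 0.68, -1.14, 1.71 and -0.36 in PBS replicates 1 to 5. In SCN9A_2544 replicates 1 to 5 it was 2.42, 1.72, -1.60, 0.83 and 1.53. It was lower in the 3 libraries of low neuronal score than in any of the other 7. Where 0 falls depends on transcript lengths, which were not used, so only differences between libraries are read. The mean includes Ank3, whose neuronal slope was -0.08. The group means were 0.64 ± 1.42 and 0.98 ± 1.55 (SD, n = 5 each), a difference smaller than the SD within either group.

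Other genes of the node and its flanks were read from lists of channels, scaffolds and glial junction genes. Of 50 such genes tested, 23 had neuronal slopes above 0 and 18 below 0 that passed, against 21.9% and 20.7% of all genes. In the siRNA comparison 0 of 50 passed and 28 of 50 had log2 fold changes above 0, with a median of 0.04, where 53.4% of all genes lay above 0.

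Among nodal ion channels, 8 of 9 had slopes above 0 that passed, with a median of 0.98. Scn1a (Nav1.1) had a slope of 1.19 and Scn4b 0.98, both sodium channel subunits, and Kcnk4 (the potassium channel TRAAK) had 1.00, each with an SE of at most 0.15. Scn8a, the main nodal sodium channel Nav1.6, had 1.62 (SE 0.26). Scn8a stood at 20.1 CPM in PBS replicate 3 and at 184 CPM in SCN9A_2544 replicate 1, the ends of its range, and had a log2 fold change of 0.45 (SE 0.50) in the siRNA comparison. Kcnk4 had 0.27 (SE 0.32) there. Without PBS replicate 3 these were 0.20 for Scn8a and 0.11 for Kcnk4, and without PBS replicate 4 they were 0.79 and 0.55.

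Of 6 axonal scaffold genes, 4 passed above 0. Ank1 and Ank2, both ankyrins like Ank3, had slopes of 1.24 (SE 0.12) and 1.11 (SE 0.14), where Ank3 had -0.08. Epb41l3, the paranodal protein 4.1B, had 0.82, and Sptan1, αII-spectrin, 0.56. The spectrin gene Sptb did not pass, at -0.38 (SE 0.28). All 10 juxtaparanodal genes passed above 0, with a median slope of 1.06. They included the potassium channel subunits Kcna4 (1.07) and Kcnab2 (1.12), the scaffold Dlg2 (1.48) and the secreted Lgi3 (1.16). In the siRNA comparison the smallest p values in these lists belonged to Sptb (-0.39) and Ank2 (0.31), and to Adam23 (0.38) and Dlg4 (0.19), with adjusted p of 0.963 or more. With single libraries left out they ran from -0.59 to -0.14 for Sptb (without PBS replicate 1 and 5), 0.11 to 0.46 for Ank2 (without PBS replicate 3 and SCN9A_2544 replicate 3), 0.15 to 0.55 for Adam23 (without SCN9A_2544 replicate 1 and PBS replicate 4) and 0.09 to 0.32 for Dlg4 (without PBS replicate 5 and 4).

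Glial genes leaned the other way. Of 13 genes of Schwann cell microvilli and surface matrix, 10 had slopes below 0 that passed and 0 above. The integrin Itga6 had -1.67, the microvillar linker Ezr -1.19, the laminin receptor Dag1 -1.14 and Rdx -0.78. Ezr stood at 259.6 CPM in SCN9A_2544 replicate 3 and at most 104 CPM in the other libraries, and without that library its slope was -0.73. Itga6 was 128 CPM in PBS replicate 1 and 832 CPM in SCN9A_2544 replicate 3, the libraries where Gldn was lowest and highest. In the siRNA comparison Drp2 had -0.71 (SE 0.42) and Sdc3 0.45 (SE 0.23, unadjusted p 0.0697), the smallest p of this list. Drp2 was -0.36 without PBS replicate 5, which stood at 732 CPM, and Sdc3 was 0.26 without SCN9A_2544 replicate 3.

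Of 10 genes of Schwann cell paranodal and autotypic junctions, 7 passed below 0 and 1 above. The gap junction gene Gjc3 had -2.29, the myelin lectin Mag -2.11 and Cadm4, the glial receptor for axonal Cadm proteins, -1.52. Patj, a polarity protein of tight junctions, stood against its list at 1.07 (SE 0.09), and was 52.9 CPM in SCN9A_2544 replicate 3 against 175 CPM in PBS replicate 4. In the siRNA comparison Mpdz had -0.30 (-0.15 without PBS replicate 3) and Cdh1 -0.17, both with adjusted p of 0.963. Of the 2 internodal Cadm genes known as axonal, Cadm2 passed below 0 at -0.80 (SE 0.18; -1.23 without SCN9A_2544 replicate 3) and Cadm3 did not pass, at 0.03 (SE 0.13), so the Cadm2 slope had the opposite sign to those of the axonal genes above that passed. Their log2 fold changes in the siRNA comparison were -0.42 and -0.15, and that of Cadm2 was -0.14 without PBS replicate 3 and turned to 0.05 in the 7 libraries.

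Genes related by sequence to the members were read as well, since reads shared between them could be split by the counting. Of 13 such genes 10 passed above 0 on the neuronal score and 1 below. Cntn6, a contactin, had a slope of 1.29 (SE 0.29) and stood between 0.953 and 5.97 CPM. Cntnap5c, of the Caspr family, had 1.75 (SE 0.27) and stood between 0.545 and 4.52 CPM. Olfm1, whose protein shares the olfactomedin domain with gliomedin, had 0.78 (SE 0.08). L1cam and Cntn5 had the smallest p values of this list in the siRNA comparison, at 0.25 (SE 0.16) and 0.44 (SE 0.35). L1cam was 0.16 without PBS replicate 5, and Cntn5 was 0.23 without SCN9A_2544 replicate 1 and 0.68 without PBS replicate 2. Estimated counts more than 0.01 from a whole number occurred for Nrcam in 2 libraries and for the other 8 genes in none.

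**Figure D4:**
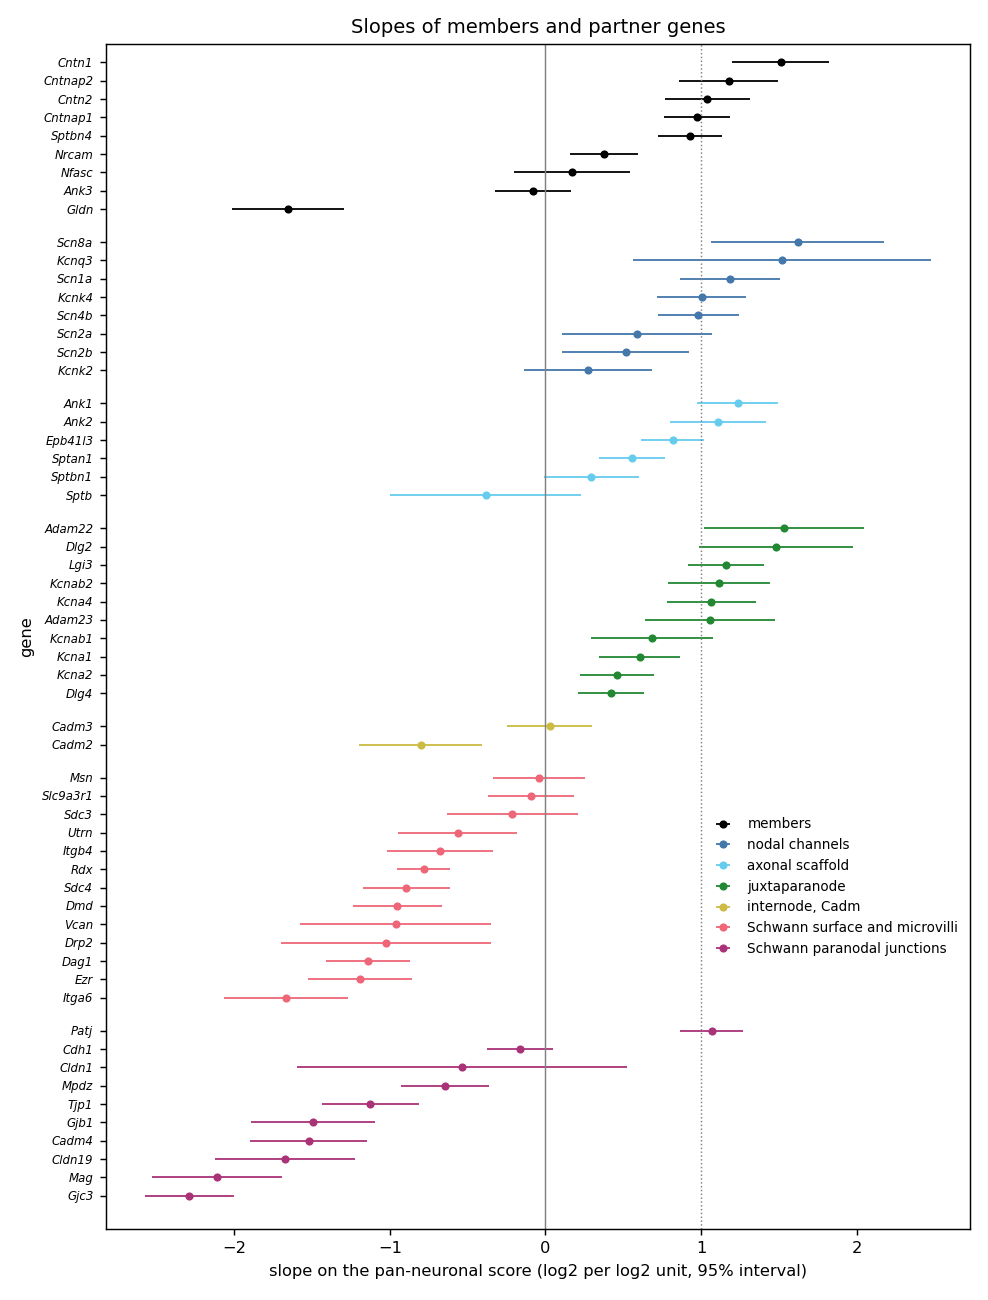
Slope on the neuronal score with its 95% interval for the 9 genes (black) and related genes of the node, paranode, juxtaparanode and Schwann cell junctions, coloured by list; the dotted line marks a slope of 1. Channel and juxtaparanode genes lie to the right of 0, most Schwann cell genes lie to the left with Gldn, and Ank3, Nfasc, Patj and Cadm2 stand apart from their neighbours.

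The members were also described by the genes whose log2 CPM profiles over the 10 libraries were most like theirs, by Pearson r. The 10 points share library depth and the difference in neuronal share, so these are descriptions with no p. Cntnap1 was most like Abcg4 (0.994), Nacad (0.994) and Eef1a2 (0.992). Sptbn4 was most like Abcg4 (0.994), Fry and Rnf157 (0.992). Cntn1 was most like Aak1 (0.992), Fam155a (0.991) and Galnt14 (0.987).

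Cntnap2 was most like Scn1a, Synj1 and Dzank1, the latter 2 at 0.989. Cntn2 was most like Unc13a (0.987), Sfxn5 (0.985) and Ptprg (0.985). Nrcam was most like Macf1 (0.979), Sema3d (0.971) and Plppr4 (0.968), and Nfasc was most like Atxn1 (0.959), Tnks (0.948) and Tns1 (0.925). Gldn was most like Emp2 (0.993), Gjb1 (0.992), the gene of the Schwann cell gap junction protein connexin 32, and Rasgef1c (0.991). Ank3 had the least close neighbours, Ubxn4 (0.886), Msrb3 (0.878) and Rxylt1 (0.853).

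Among the members themselves, Cntnap1 and Sptbn4 had an r of 0.989 and Cntnap1 and Cntn2 of 0.979. Gldn was opposite to the axonal genes, from -0.8955 with Cntn1 to -0.859 with Cntnap2, and Ank3 was the exception at 0.41. With Nfasc, Gldn had an r of -0.06.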

How the data were processed

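RNA from L6 dorsal root ganglia of 5 PBS and 5 SCN9A_2544 libraries was sequenced after poly(A) selection, with NEBNext Ultra II RNA libraries read as pairs of 150 bases, per the labels' protocols. The authors deposited expected counts per gene, not normalized, and 8.74% to 9.26% of a library's values lay more than 0.01 from a whole number. Tools named in the submitters' processing notes are DESeq2 1.44.0 and STAR 2.7.10a, and the build named is mRatBN7.2. Which program counted is not given in the sources used here. Since the plan assumed raw counts, the values were rounded to whole numbers.

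Low genes were removed by filterByExpr in edgeR, at a count of 10 and a total of 15, libraries were scaled by TMM, and log2 CPM uses a prior count of 2. Comparisons used edgeR 4.0.16 in R 4.3.3 (quasi-likelihood F-test, all 10 libraries, Benjamini-Hochberg over all genes, threshold 0.05), with the group alone, with the neuronal score, and with the Schwann score. An SE is the size of the log2 value divided by the square root of F. Genes of a score were left out of its slope counts, and Snhg11, named for the neuronal score, was not used. The scripts were tested on simulated data. Alternatives were other scalings, no filter, DESeq2 1.42.0, limma 3.58.1 voom, a replicate block, other covariates and each library left out.

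The members and lists were chosen with earlier results of these data known. Named genes are the 9 members, up to 4 genes of each list by smallest p in the neuronal slope and up to 2 in the siRNA comparison, and the 3 closest profiles of each member. Kcnk2, Sptbn1 and other list members are in the counts, and some genes this rule names are not reported here.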

Additional observations from a re-analysis of the deposited data

Results flagged for a closer look

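In 26 groups of 5 values, each of them a gene's CPM or a score within PBS or SCN9A_2544 libraries, 3 held a library far from the nearest of the other 4, with a Dixon ratio above the critical value of 0.71. Chance alone flags about 5% of such groups. Ank3 in SCN9A_2544 replicate 5 was 410.7 CPM (ratio 0.822), while the other 4 siRNA libraries lay between 310.7 and 328.6 CPM and the PBS libraries reached 421.5 CPM. Gldn in SCN9A_2544 replicate 3 was 236.2 CPM (ratio 0.805), against 40.8 to 78.96 CPM in the other 4. The neuronal score of the same library was 7.949 (ratio 0.718), against 8.95 to 9.35 in the other 4, and its Schwann score of 10.66 was the highest of the 10. The part of the low neuronal score in the Gldn value was not tested.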

How the results depend on the processing

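Counts of genes past the threshold moved as follows. In the siRNA comparison (0 genes) DESeq2 gave 12, removing the 3 libraries of lowest neuronal score gave 1, and leaving out single libraries gave 0 to 1. At equal neuronal score (0 genes) DESeq2 gave 46, no filter 1, the Schwann score as covariate 1, the 7 libraries 1, and single libraries left out 0 to 4. Neuronal slopes (6460 genes) gave 0 with the replicate block, 10 in the 7 libraries, and 4956 to 6427 with single libraries left out. Schwann slopes (6064 genes) gave 0 with the block, 188 in the 7 libraries, and 4041 (without SCN9A_2544 replicate 3) to 6041 with single libraries left out. Same-numbered libraries deviated together by correlations of 0.379, 0.005, 0.567, -0.006 and 0.051, and 2 of 5 libraries matched best with their own number. Whether the replicate numbers pair the libraries is not in the labels, and these values do not settle it. The block left the siRNA comparison at 0 calls.

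Values near 0 changed sign. Of the log2 fold changes, Cntnap2 was -0.0628 with voom, -0.0557 with the block and -0.019 in the 7 libraries, Ank3 was 0.00218 and Cadm2 0.045 in the 7 libraries, and Nrcam was -0.0105 with upper-quartile scaling, -0.00806 with no filter, -0.00446 with voom and -0.00377 with the block. Leaving out single libraries gave -0.13 to 0.23 for Cntnap2, -0.0665 to 0.12 for Nfasc, -0.04997 to 0.11 for Nrcam and -0.91 to 0.12 for Gldn. At equal score, Nfasc was -0.00401 with DESeq2 size factors, -0.00928 with upper-quartile scaling, -0.0114 with no filter and -0.00667 with the DESeq2 test, Cntnap2 was 0.00725 and Nrcam 0.0492 in the 7 libraries, and Gldn was 0.0553 with the Schwann covariate. Single libraries left out gave -0.13 to 0.10 for Nfasc and -0.0945 to 0.0491 for Nrcam. The Ank3 slope was 0.23 (neuronal) and -0.0848 (Schwann) with the block, the Nfasc Schwann slope was 0.10 in the 7 libraries and -0.183 to 0.0376 with single libraries left out, and the Cadm3 neuronal slope was -0.16 to 0.12. The cause of these changes was not tested.

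Among the alternatives, 131 of 153 member fold changes, 148 of 162 at equal score, 155 of 171 neuronal slopes and 139 of 162 Schwann slopes kept direction and side of the threshold. With 5 libraries a group, the median SE of a log2 fold change was 0.22, which limits what the siRNA comparison can show.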
